A study of Mus musculus with 20 samples.

Results

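The genes described here are the platelet-derived growth factor (PDGF) ligands Pdgfa, Pdgfb, Pdgfc and Pdgfd and the receptors Pdgfra and Pdgfrb in mouse liver. They were chosen by gene symbol, as 6 of the 46095 symbols in the deposited count table, and all 6 were among the 14440 genes that passed the low-count filter and were tested. The libraries came from the livers of 20 mice in 4 groups of 5, sequenced to follow what loss of hepatic Pck1 and a steatohepatitis-inducing diet (NASH diet) change in the transcriptome. Pck1 encodes phosphoenolpyruvate carboxykinase of the cytosol, which acts in gluconeogenesis. The groups were wild-type mice on chow (WT chow), wild-type mice on the NASH diet (WT NASH), Pck1-cKO mice on chow (KO chow) and Pck1-cKO mice on the NASH diet (KO NASH). The knockout was liver-specific, and the promoter that drove the recombinase is not given in the sources used here. All mice were 31 to 33 weeks old, had been fed their diet for 24 weeks, and each gave a library of its own.

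PDGF ligands are secreted as dimers that join and activate receptor tyrosine kinases on mesenchymal cells. The alpha receptor, encoded by Pdgfra, binds PDGF-A, PDGF-B and PDGF-C chains, and the beta receptor, encoded by Pdgfrb, binds PDGF-B and PDGF-D. In the liver the receptors are known from hepatic stellate cells and portal fibroblasts, the cells that lay down collagen in fibrosis, and PDGF-B is a potent mitogen of activated stellate cells.

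Pdgfa lies on the minus strand of chr5:138976014-138997370 (GRCm38, gene bounds from GENCODE M21) and Pdgfra on the plus strand of the same chromosome at chr5:75152292-75198215. Pdgfb occupies chr15:79995874-80014977 on the minus strand, Pdgfc chr3:81036416-81214040 and Pdgfd chr9:6168584-6378850, both on the plus strand. Stretches upstream of a RefSeq start of Pdgfa and of Pdgfra (GRCm38.p6) are printed because these genes were called higher in the same comparison below. Capitals mark CG dinucleotides, and both read 5′ to 3′ on the gene's strand. The Pdgfra stretch is the 250 bases next to the start, chr5:75152001-75152250. The Pdgfa stretch is the 157 bases at chr5:138995038-138995194, which lie inside the GENCODE gene bounds, and the 93 bases between it and the RefSeq start are left out because they begin in an exon of the GENCODE annotation.
Pdgfra: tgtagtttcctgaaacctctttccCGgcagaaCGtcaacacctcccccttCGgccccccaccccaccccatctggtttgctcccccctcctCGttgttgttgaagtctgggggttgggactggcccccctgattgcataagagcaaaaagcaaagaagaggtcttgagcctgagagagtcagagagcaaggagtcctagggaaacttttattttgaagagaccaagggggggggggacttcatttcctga
Pdgfa: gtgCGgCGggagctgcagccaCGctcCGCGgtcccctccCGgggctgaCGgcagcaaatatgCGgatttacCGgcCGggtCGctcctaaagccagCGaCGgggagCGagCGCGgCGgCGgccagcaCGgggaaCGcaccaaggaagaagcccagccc
The Pdgfa stretch was 72.0% G or C with 20 CG dinucleotides, and the Pdgfra stretch 54.4% with 4. In the 300-base windows from which these were taken, the Pdgfa window held 37 CG dinucleotides, a number that 5.58% of all 32851 RefSeq promoter windows reached, and the Pdgfra window held 5, which 62.0% reached. A GC box (GGGCGG, both strands), present in 35.7% of all windows, was found 2 times in this Pdgfa window and 1 time in that of a second Pdgfa start. It was not found in the windows of Pdgfra, Pdgfc and Pdgfd. The letters GCGNGGGCG, a motif of EGR factors present in 5.55% of windows, were found in no window of the 4 PDGF genes that had an entry. TATAAA, present in 13.6% of windows, was found 1 time, in the Pdgfd window. These matches describe letters in a window and were not tested as binding sites.

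Libraries held 9958935 to 20601955 counts. Pck1 was at 3573 ± 1139 CPM (counts per 1000000 of the TMM-scaled library size, mean ± SD, n = 5) in WT chow and 626 ± 175 in KO chow (a change of -2.51 on the log2 scale, SE 0.291, edgeR adjusted p = 0.00011). WT NASH had 2290 ± 511 CPM and KO NASH 445 ± 112 CPM of it (change of -2.36 on the log2 scale, SE 0.289, edgeR adjusted p = 6.13e-05), with no overlap between genotypes in either diet. Sex is not among the labels. Read from Y-linked counts, all 5 WT chow mice were male, only replicate 4 of WT NASH was male beside 4 females, replicates 3 and 5 of KO chow were its 2 females, and replicate 2 was the female of KO NASH. In 6 libraries (WT chow replicates 3, 4 and 5, WT NASH replicate 4, KO chow replicates 4 and 5) expression fell with gene length relative to the other libraries, with slopes of -0.34 to -0.25 versus 0.01 to 0.19 in the other 14. Sex and this slope were thus unequal between the groups. Fits with terms for them are given for the called PDGF genes, and for the gene lists as the calls that remained. KO NASH replicates 1 and 5 were the most alike pair of any group (chi-square per degree of freedom 7.98, the next lowest in that group being 45.2), but differed by more than sampling noise. That does not show that they came from separate mice. They were kept apart because the labels list them as separate mice. Fits with both added together are given for the called PDGF genes, and for the gene lists only as the number of calls kept.

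The PDGF genes were of low abundance in whole liver. Per length, on the RPKM scale (CPM per kilobase of exon), the mean level over the 20 libraries was 1.73 ± 0.935 for Pdgfrb, 1.62 ± 0.641 for Pdgfa, 1.35 ± 0.861 for Pdgfd, 1.07 ± 0.516 for Pdgfra, 1.02 ± 0.482 for Pdgfc and 0.437 ± 0.189 for Pdgfb (SD, n = 20). Neighbours in that order from Pdgfrb to Pdgfc differed by less than their spread over libraries, and Pdgfb lay below Pdgfc by more than 1 SD of either. Pdgfrb stood at percentile 38.2 of the RPKM of all genes tested and Pdgfb at percentile 14.6. Raw counts per library ran from 18 to 191 for Pdgfa, from 0 to 70 for Pdgfb, and from 37 to 461 for Pdgfrb. In whole tissue, fewer cells of a type and less RNA per cell cannot be told apart.

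In the fit without a sex term, Pdgfa and Pdgfra were higher in KO NASH than in WT NASH, and Pdgfa was lower in WT NASH than in WT chow. A gene was called when the p of edgeR's quasi-likelihood test, Benjamini-Hochberg adjusted over all 14440 genes, was under 0.05. None of these differences stayed called with a sex term. The sexes were unequal, with 1 male and 4 females in WT NASH, 4 males and 1 female in KO NASH and 5 males in WT chow. In KO NASH versus WT NASH 2 of the 6 genes were called, both higher, where 9.65% of all genes tested were called and 4.9% were called higher. The median log2 fold change was 0.85 over the 6 genes and 0.00 over all genes tested. In WT NASH versus WT chow 1 gene was called, lower, where 5.93% of all genes were called and 3.24% were called lower, with medians of 0.12 for the 6 genes and 0.01 for all genes. In KO chow versus WT chow edgeR called 0 of the 6 genes where 5.53% of all genes were called. None of the 6 had an unadjusted p under 0.05 there (19.4% of all genes), DESeq2 called 0 (8.13% of all genes), and the medians were 0.01 for the 6 genes and 0.00 for all genes. In KO NASH versus KO chow edgeR called 0 of the 6 where 3.29% of all genes were called, 2 had an unadjusted p under 0.05 (Pdgfra and Pdgfrb, 22.2% of all genes), DESeq2 called 0 (8.69% of all genes), and all 6 fold changes were above 0 with a median of 0.60 versus -0.02 for all genes. The interaction, which subtracts the genotype difference on chow from that on the NASH diet, called 0 of the 6 genes where 0.139% of all genes were called, with 1 unadjusted p under 0.05 (Pdgfa, 8.25% of all genes) and 0 calls by DESeq2 (1.09% of all genes). The comparisons share groups and are not independent of each other.

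**Figure D1:**
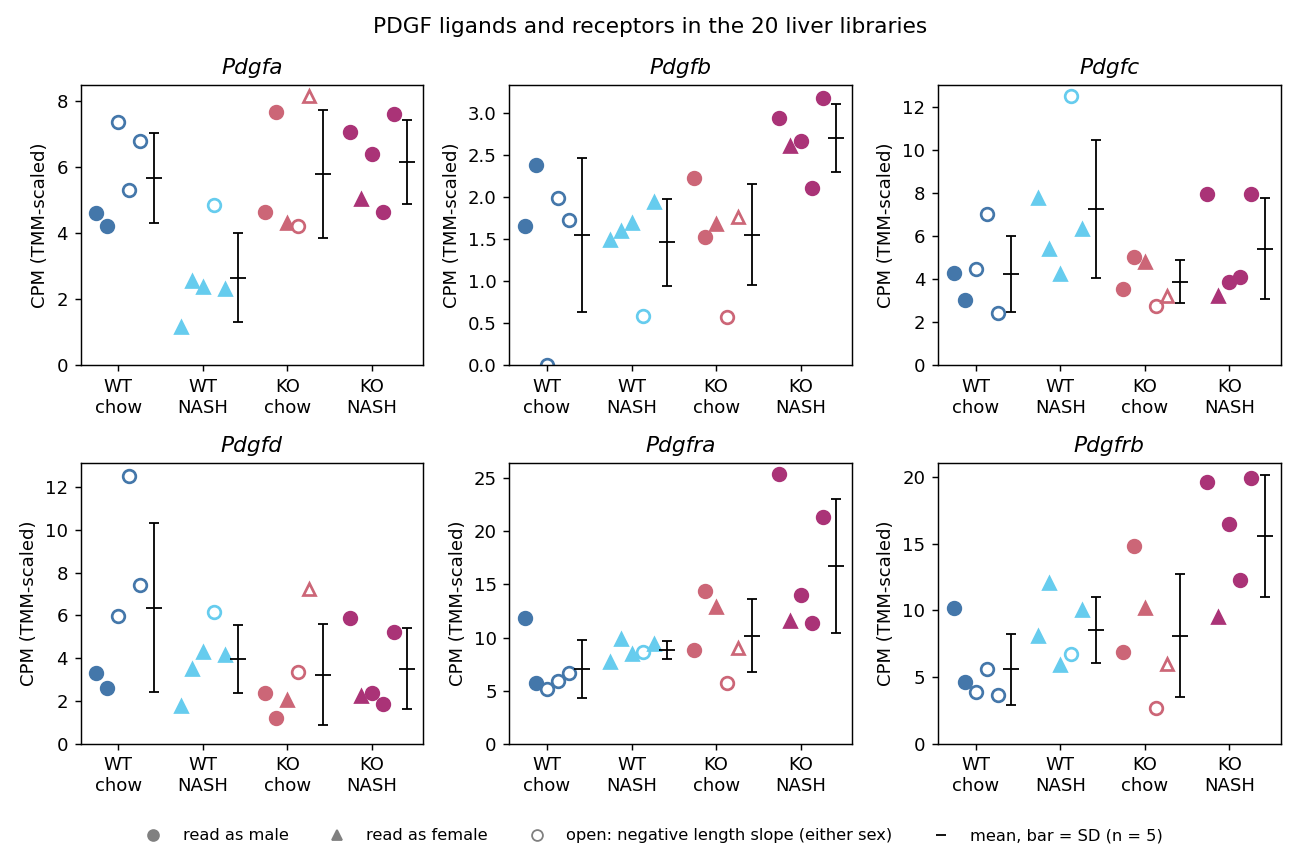
CPM (TMM-scaled) of the 6 PDGF genes in each of the 20 libraries by group, with filled or open circles for libraries read as male and triangles for those read as female, open symbols for the 6 libraries of negative length slope, and a bar for the mean and SD (n = 5). Pdgfa is at 1.16 to 2.55 CPM in the 4 female WT NASH libraries and at 4.21 CPM or more elsewhere, and both receptors have their highest mean in KO NASH.

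Pdgfa, whose product forms PDGF-AA and signals through the alpha receptor, was the only ligand called by edgeR in the fit of all 20 libraries, and differences between ligands were not tested. It was at 4.62, 4.22, 7.36, 5.32 and 6.79 CPM in WT chow (replicates 1 to 5) and at 1.16, 2.55, 2.36, 4.85 and 2.32 CPM in WT NASH. In the knockouts it was at 4.63, 7.68, 4.31, 4.21 and 8.14 CPM on chow and at 7.08, 5.04, 6.39, 4.65 and 7.62 CPM on the NASH diet. Low values were thus found in 4 of the 5 WT NASH libraries, and replicate 4 of that group lay among the libraries of the other groups. The group means were 2.65 ± 1.35 CPM in WT NASH, 5.66 ± 1.36 in WT chow, 5.79 ± 1.95 in KO chow and 6.16 ± 1.28 in KO NASH (SD, n = 5), and the 3 higher means lay within their spread. KO NASH exceeded WT NASH by 1.25 on the log2 scale (SE 0.308, 2.38-fold, edgeR adjusted p = 0.0155). WT NASH minus WT chow was -1.13 (SE 0.310, edgeR adjusted p = 0.0357). KO chow and WT chow differed by 0.04 on the log2 scale (95% interval -0.58 to 0.66, edgeR adjusted p = 0.961), and KO NASH and KO chow by 0.09 (-0.53 to 0.70, edgeR adjusted p = 0.879). The interaction of Pdgfa was 1.21 (SE 0.426, unadjusted p = 0.00968, edgeR adjusted p = 0.357) and was not called.

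The 4 low WT NASH libraries were the 4 read as female, and replicate 4 was the male of that group. Females of the other groups were at 4.31 and 8.14 CPM in KO chow, beside males at 4.21 to 7.68, and at 5.04 CPM in KO NASH, beside males at 4.65 to 7.62. WT chow held no female. With sex as a term, KO NASH versus WT NASH was 1.06 on the log2 scale and no longer called (edgeR adjusted p = 0.0699), and WT NASH versus WT chow was -0.87 (edgeR adjusted p = 0.288). The male minus female coefficient of Pdgfa was 0.36 (edgeR adjusted p = 0.982) where 1.02% of all genes were called for sex. With sex and slope as terms the former was 1.23 and called (edgeR adjusted p = 0.0129) and the latter -0.70 and not called (edgeR adjusted p = 0.231). In libraries read as male alone, with a single WT NASH library taken to vary like the other groups, the values were 0.44 (edgeR adjusted p = 0.543) and -0.24, respectively (edgeR adjusted p = 0.846). Libraries read as female, with a single KO NASH library, gave 1.28 for KO NASH versus WT NASH (edgeR adjusted p = 0.520). The sex term also draws on the KO groups, and takes the sex difference as equal in all groups. Within WT NASH and WT chow, sex and diet cannot be told apart except through WT NASH replicate 4. That library was also the only one of WT NASH with a negative slope and had the fewest counts of all, 9958935. Within WT NASH, sex and slope thus cannot be told apart. In the fit with both terms the slope coefficient of Pdgfa was -1.22 (edgeR adjusted p = 0.0614), where 57.9% of all genes were called for the slope.

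Leaving out 1 library at a time, Pdgfa remained called in KO NASH versus WT NASH in all 20 fits (log2 fold change 1.06 to 1.55, edgeR adjusted p 0.00357 to 0.0422). In WT NASH versus WT chow it was called in 13 of 20 and lost without WT chow replicate 3, 4 or 5 or WT NASH replicate 1, 2, 3 or 5 (edgeR adjusted p up to 0.0960). Fitting only WT NASH and WT chow also ended the second call (edgeR adjusted p = 0.104). So did leaving out the 6 libraries of negative slope (-1.06, edgeR adjusted p = 0.0682), while the first was 1.54 without those libraries (edgeR adjusted p = 0.00143). Without them WT NASH held only females and WT chow only males.

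Pdgfb, the ligand of both receptors that platelets and endothelial cells are known to release, was the least abundant. Its levels were 1.66, 2.38, 0, 1.99 and 1.73 CPM in WT chow, 1.48, 1.60, 1.70, 0.588 and 1.94 in WT NASH, 2.22, 1.53, 1.68, 0.581 and 1.76 in KO chow and 2.94, 2.61, 2.67, 2.11 and 3.17 in KO NASH. All 5 KO NASH libraries lay above all 5 WT NASH libraries, a pattern found in this direction in 7.67% of all genes tested. The means were 2.70 ± 0.401 CPM in KO NASH and 1.46 ± 0.516 in WT NASH, and the log2 fold change of 0.85 (95% interval -0.17 to 1.87) was not called (edgeR adjusted p = 0.285). The other comparisons gave -0.08 for WT NASH versus WT chow (95% interval -1.12 to 0.97), -0.01 for KO chow versus WT chow (-1.04 to 1.02) and 0.78 for KO NASH versus KO chow (-0.22 to 1.79), none of them called. The lowest libraries, WT chow replicate 3, KO chow replicate 4 and WT NASH replicate 4, with 0, 8 and 4 counts, belonged to those of negative slope. A count of 0 in WT chow replicate 3 allows up to 3 counts, or 0.299 CPM, for counting error only. Without the 6 libraries of negative slope, KO NASH versus WT NASH was 0.68 and called (edgeR adjusted p = 0.0346), in a fit with only females in WT NASH.

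Pdgfc and Pdgfd encode the ligands that are secreted in a latent form and activated when proteases remove a CUB domain. Pdgfc was at 4.26, 3.03, 4.48, 7.03 and 2.43 CPM in WT chow and at 7.75, 5.40, 4.24, 12.5 and 6.33 CPM in WT NASH. In KO it was at 3.57, 5.03, 4.80, 2.76 and 3.22 CPM on chow and 7.97, 3.21, 3.85, 4.12 and 7.94 CPM on the NASH diet. The highest library was WT NASH replicate 4, and all groups overlapped. The mean was 7.24 ± 3.21 CPM in WT NASH and 4.25 ± 1.77 in WT chow (log2 fold change 0.76, SE 0.343, unadjusted p = 0.0371, edgeR adjusted p = 0.194). KO NASH versus WT NASH gave -0.40 (95% interval -1.10 to 0.30), KO chow versus WT chow -0.12 (-0.83 to 0.59) and KO NASH versus KO chow 0.48 (-0.22 to 1.18). No comparison of Pdgfc was called.

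Pdgfd, a ligand of the beta receptor, had the widest range of the 5 genes with counts in every library, 10.4-fold from the lowest to the highest. It was at 3.32, 2.60, 5.97, 12.5 and 7.41 CPM in WT chow and at 1.74, 3.50, 4.30, 6.18 and 4.13 CPM in WT NASH. The knockouts had 2.36, 1.21, 2.03, 3.34 and 7.23 CPM on chow and 5.88, 2.22, 2.36, 1.87 and 5.21 CPM on the NASH diet. All groups overlapped, and the highest library of WT chow, WT NASH and KO chow was in each case one of negative slope. The 6 libraries of negative slope had 3.34 to 12.5 CPM (median 6.70) and the other 14 had 1.21 to 5.88 (median 2.48). In the fit with sex and slope terms the slope coefficient of Pdgfd was -3.20 (edgeR adjusted p = 0.00258), where 57.9% of all genes were called for the slope. The largest group difference was KO chow versus WT chow, -0.98 on the log2 scale (95% interval -2.00 to 0.05, edgeR adjusted p = 0.285). WT NASH versus WT chow gave -0.69 (-1.71 to 0.34), KO NASH versus WT NASH -0.16 (-1.18 to 0.87) and KO NASH versus KO chow 0.13 (-0.88 to 1.15), and no comparison was called. WT NASH versus WT chow turned to 0.22 without the 6 libraries of negative slope, which left only females in WT NASH and only males in WT chow. KO NASH versus WT NASH turned to 0.32 with a slope term and 0.31 with sex and slope terms.

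**Figure D2:**
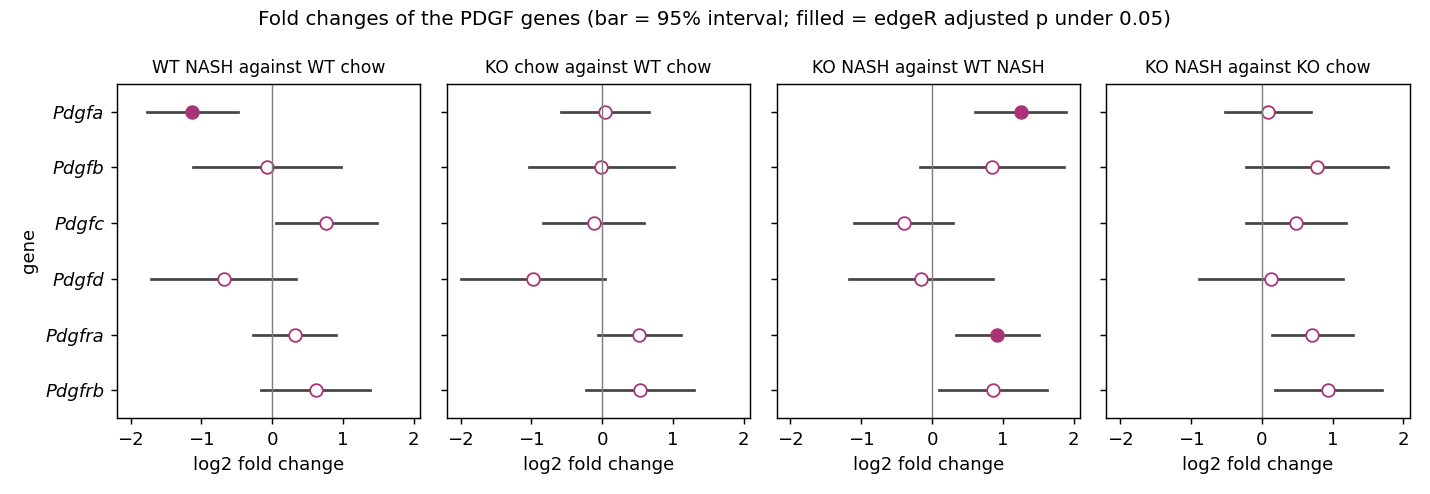
Log2 fold changes of the 6 PDGF genes (x axis) in the 4 pairwise comparisons, with 95% intervals as bars and filled points for genes called by edgeR. Pdgfa is called in WT NASH versus WT chow (-1.13) and, with Pdgfra, in KO NASH versus WT NASH (1.25 and 0.92), and no gene is called in the other panels.

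Both receptor genes had their highest mean in KO NASH. Pdgfra was at 11.8, 5.74, 5.17, 5.89 and 6.65 CPM in WT chow and at 7.68, 9.91, 8.48, 8.68 and 9.36 CPM in WT NASH. In KO it was at 8.85, 14.4, 12.9, 5.74 and 9.05 CPM on chow and at 25.4, 11.6, 14.0, 11.4 and 21.4 CPM on the NASH diet. As for Pdgfb, all 5 KO NASH libraries lay above all 5 WT NASH libraries (7.67% of all genes tested), and replicates 1 and 5 were the highest. The means were 16.7 ± 6.30 CPM in KO NASH, 10.2 ± 3.47 in KO chow, 8.82 ± 0.853 in WT NASH and 7.06 ± 2.73 in WT chow, and neighbouring means among the lower 3 lay within their spread. KO NASH exceeded WT NASH by 0.92 on the log2 scale (SE 0.279, 1.90-fold, edgeR adjusted p = 0.0412). KO NASH versus KO chow gave 0.71 (SE 0.276, unadjusted p = 0.0176, edgeR adjusted p = 0.141), KO chow versus WT chow 0.53 (95% interval -0.06 to 1.11) and WT NASH versus WT chow 0.32 (-0.27 to 0.90), and none of these was called.

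The call of Pdgfra lay near the threshold. It was lost with a sex term (0.87, edgeR adjusted p = 0.140), with sex and slope terms (0.70, edgeR adjusted p = 0.128) and with KO NASH replicates 1 and 5 added together as 1 sample (0.79, edgeR adjusted p = 0.108). Leaving out any one of the 5 WT NASH libraries, or KO NASH replicate 1, 3 or 5, also ended it (edgeR adjusted p up to 0.120). All 20 of those fold changes stayed above 0, between 0.74 and 1.03. Fits of 1 sex leave a single WT NASH library among males and a single KO NASH library among females, so their p-values do not bear on the stability of the call: males gave 1.08 (edgeR adjusted p = 0.244) and females 0.41 (edgeR adjusted p = 0.934, in a fit that called 0.138% of all genes).

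Pdgfrb, on chromosome 18, was at 10.2, 4.60, 3.88, 5.60 and 3.67 CPM in WT chow and at 8.07, 12.0, 5.93, 6.77 and 10.01 CPM in WT NASH. Its levels were 6.86, 14.8, 10.1, 2.69 and 5.95 CPM in KO chow and 19.7, 9.53, 16.5, 12.3 and 19.95 CPM in KO NASH. The KO NASH libraries were high, but replicate 2 lay within the range of WT NASH. KO NASH averaged 15.6 ± 4.59 CPM versus 8.56 ± 2.48 in WT NASH, a log2 fold change of 0.86 (95% interval 0.10 to 1.62, unadjusted p = 0.0286) that was not called (edgeR adjusted p = 0.141), except in the fit of those 2 groups alone (0.84, edgeR adjusted p = 0.0446). It was 0.76 with a sex term (edgeR adjusted p = 0.355), 0.57 with a slope term (edgeR adjusted p = 0.214) and 0.51 with both (edgeR adjusted p = 0.394). KO chow averaged 8.10 ± 4.61 CPM and WT chow 5.59 ± 2.68. KO NASH versus KO chow gave 0.94 (SE 0.363, unadjusted p = 0.0177, edgeR adjusted p = 0.142), WT NASH versus WT chow 0.61 (95% interval -0.16 to 1.39, edgeR adjusted p = 0.333) and KO chow versus WT chow 0.54 (-0.23 to 1.30, edgeR adjusted p = 0.456).

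Length slope moved with both receptors. In the 6 libraries of negative slope Pdgfra was at 5.17 to 9.05 CPM and Pdgfrb at 2.69 to 6.77, versus 5.74 to 25.4 and 4.60 to 19.95 in the other 14, and KO NASH held none of those 6. The slope coefficients in the fit with both terms were 1.28 for Pdgfra (edgeR adjusted p = 0.0479) and 2.15 for Pdgfrb (edgeR adjusted p = 0.00998). Without the 6 libraries KO NASH versus WT NASH was 0.91 for Pdgfra (edgeR adjusted p = 0.0276) and 0.78 for Pdgfrb (edgeR adjusted p = 0.0784). Of the 6, only WT NASH replicate 4 lay in either of these groups, so this fit could hardly show what the slope changes. That fit left only females in WT NASH beside 4 males and 1 female in KO NASH, so sex and genotype are nearly confounded in it.

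Across the 20 libraries the receptors varied together. The correlation of their log2 CPM was r = 0.92 (Spearman's rho 0.94, n = 20), given as a description over libraries that share groups, depth and the slope. It was 0.87 on deviations from the group means, 0.90 without the 2 libraries farthest from the median of Pdgfra (n = 18), 0.91 in the 14 libraries of slope above 0, 0.69 in the 6 of negative slope, 0.95 in 13 males and 0.54 in 7 females. The ratio of Pdgfra to Pdgfrb CPM ranged from 0.823 in WT NASH replicate 2 to 2.14 in KO chow replicate 4. No other pair of the 6 genes had r above 0.55 over the 20 libraries, and the receptors with Pdgfa had 0.27 for Pdgfra and 0.09 for Pdgfrb.

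**Figure D3:**
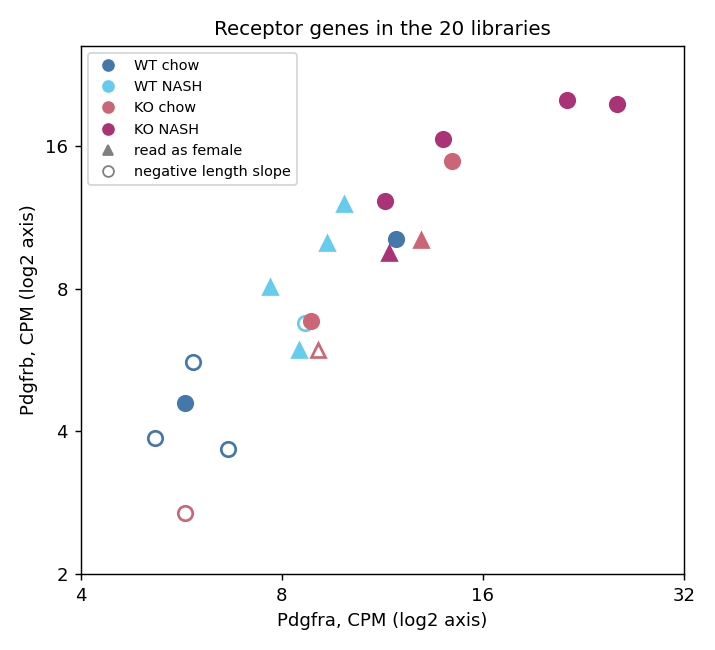
Pdgfrb versus Pdgfra in the 20 libraries (CPM, log2 axes), coloured by group, with triangles for libraries read as female and open symbols for negative length slope. KO NASH replicates 1 and 5 lie at the upper right with 25.4 and 21.4 CPM of Pdgfra, and KO chow replicate 4 is lowest in Pdgfrb at 2.69 CPM.

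Among 11315 genes that averaged 1 CPM or more, the genes whose log2 CPM was most like that of Pdgfra over the 20 libraries were Pdgfrb, Nid1 (r = 0.90), which encodes the basement membrane protein nidogen, and Ednra (r = 0.90), an endothelin receptor. Those most like Pdgfrb were Ednra (r = 0.92), Pdgfra and Abcc9 (r = 0.91), a subunit of a potassium channel of vascular mural cells. The nearest to Pdgfa were Pvt1 (0.85), Zkscan3 (0.83) and Tpm4 (0.82), and to Pdgfb Ezr (0.89), Brca2 (0.83) and Naip6 (0.82). Pdgfc was most like Fndc3b (0.79), Plxdc2 (0.76) and Itgav (0.75), and Pdgfd most like Tbc1d10a (0.87), Cd209a (0.87) and Cebpd (0.86). The receptors shared Ednra, and the ligands shared no such gene.

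Of 10 genes for proteins that process or bind PDGF, 9 were tested, and 1 was called in any comparison, KO NASH versus WT NASH (9.65% of all genes called). Plat, the tissue plasminogen activator that can activate PDGF-C, was at 2.46 ± 1.93 CPM in KO NASH and 0.591 ± 0.529 in WT NASH (log2 fold change 2.20, edgeR adjusted p = 0.0343). KO NASH replicates 1 and 5 had 5.24 and 3.67 CPM of it, and replicates 2, 3 and 4 had 0.869 to 1.58 CPM. The list had a median log2 fold change of 0.19 there, versus 0.00 for all genes. DESeq2 called 4 of the 9 in that comparison, where it called 13% of all genes. With a sex term Plat was at 1.63 and no longer called by edgeR (adjusted p = 0.174). All 24 genes of receptor-proximal signalling, adaptors and enzymes such as Grb2, Ptpn11 and Plcg1 that dock on activated receptors, were tested and edgeR called 0 in each of the 5 comparisons. Their counts at an unadjusted p under 0.05 were 3 for WT NASH versus WT chow (22.1% of all genes), 2 for KO chow versus WT chow (19.4%), 5 for KO NASH versus WT NASH (25.6%), 4 for KO NASH versus KO chow (22.2%) and 0 for the interaction (8.25%). Each count was a smaller share of the 24 than that, and DESeq2 called 1, in KO chow versus WT chow, where it called 8.13% of all genes. Of 16 downstream kinases and small GTPases, Mtor alone was called by edgeR, higher in KO chow than in WT chow (1.23, edgeR adjusted p = 0.0309), where 5.53% of all genes were called.

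Immediate early genes, which growth factors and many other stimuli induce, gave 13 tested of 16. In KO NASH versus WT NASH 3 rose and 1 fell, where 9.65% of all genes were called, and none of these 4 calls remained with a sex term. Atf3, a stress-induced transcription factor, was at 12.4 ± 9.96 CPM versus 1.36 ± 0.625 (log2 fold change 3.17, edgeR adjusted p = 0.00914), Ier3 rose by 2.82 (edgeR adjusted p = 0.0135) and Jun by 1.14 (edgeR adjusted p = 0.0236). KO NASH replicates 1 and 5 had 22.3 and 22.7 CPM of Atf3, and replicates 2, 3 and 4 had 2.44 to 11.9 CPM. Klf10 was the gene that fell (-1.14, edgeR adjusted p = 0.0245). Fos and Egr1, which PDGF is known to induce, were at 0.34 (edgeR adjusted p = 0.735) and -0.12 (edgeR adjusted p = 0.915) and were not called. The list's median was 0.09 there. Dusp1 was higher in WT NASH than in WT chow (1.89, edgeR adjusted p = 0.00701, 5.93% of all genes called) and Myc higher in KO chow than in WT chow (2.08, edgeR adjusted p = 0.0370, 5.53% of all genes called). Of the related class III receptors, VEGF receptors and their ligands, 14 were tested of 16. The VEGF receptors Flt4 (1.32, edgeR adjusted p = 0.0133), Flt1 (1.13, edgeR adjusted p = 0.0247) and Kdr (0.66, edgeR adjusted p = 0.0323) were higher in KO NASH than in WT NASH, where 9.65% of all genes were called. Flt4 was also higher in KO NASH versus KO chow (1.16, edgeR adjusted p = 0.0458), where 3.29% of all genes were called. The median of that list in KO NASH versus WT NASH was 0.11.

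Calls among these genes and the markers below depended on whether sex was in the fit. Of 28 calls of list genes over the comparisons, 10 remained with a sex term, 27 with a slope term and 19 with both. Over all genes tested, a sex term took the calls from 1393 to 625 in KO NASH versus WT NASH and from 857 to 161 in WT NASH versus WT chow. The calls went from 798 to 844 in KO chow versus WT chow and from 475 to 574 in KO NASH versus KO chow. In KO NASH versus WT NASH 3 of 16 remained with a sex term (Flt4, Gpnmb and Cela1) and 11 with both terms, those not kept being Plat, Atf3, Klf10, Kdr and Col1a2. In WT NASH versus WT chow 0 of 4 remained with either (Dusp1, Fn1, Cd3e and Cd68). In KO chow versus WT chow 3 of 4 remained with a sex term, Cd68 not, and all 4 with both, and in KO NASH versus KO chow all 4 remained with either. Leaving out 1 library kept 16 to 28 of the 28, with 16 kept without KO NASH replicate 1 and 17 without KO NASH replicate 5 or WT NASH replicate 2, and 17 were kept with KO NASH replicates 1 and 5 summed.

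Markers of the cells that carry PDGF receptors were set beside Pdgfra and Pdgfrb. All 14 stellate cell markers were detected and tested, with Lrat, the retinol esterifying enzyme, at 10.5 to 39.4 CPM. Their summed level was 234 to 424 CPM (WT chow), 333 to 500 CPM (WT NASH), 305 to 575 CPM (KO chow) and 404 to 555 CPM (KO NASH). In KO NASH versus WT NASH 12 of the 14 were above 0, with a median of 0.36, and edgeR called 0 (9.65% of all genes). There were 2 at an unadjusted p under 0.05 (25.6% of all genes) and 1 called by DESeq2 (13% of all genes). Cygb rose in KO NASH versus KO chow (1.20, edgeR adjusted p = 0.0301), where 3.29% of all genes were called. The summed stellate markers had r = 0.77 with Pdgfra and 0.70 with Pdgfrb over the 20 libraries, and 0.59 and 0.51 on deviations from the group means (1 of 11 marker lists set beside each PDGF gene).

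Activated fibroblast markers (11 of 11 tested) had a median of 0.85 in KO NASH versus WT NASH, with 10 above 0. Col1a2, a collagen chain, was the 1 called (1.53, edgeR adjusted p = 0.0408), where 9.65% of all genes were called. Without Fn1, which hepatocytes also make, their summed level was 58.9 to 109 CPM (WT chow), 61.0 to 150 CPM (WT NASH), 52.2 to 139 CPM (KO chow) and 78.2 to 257 CPM (KO NASH). Col1a1 rose in KO NASH versus KO chow (2.26, edgeR adjusted p = 0.0287, 3.29% of all genes called) and Fn1 in WT NASH versus WT chow (1.25, edgeR adjusted p = 0.0395, 5.93% of all genes called). Of 11 portal fibroblast and smooth muscle markers 7 were tested, all 7 above 0 in KO NASH versus WT NASH with a median of 1.27. Entpd2 (1.64, edgeR adjusted p = 0.00906) and Eln (1.93, edgeR adjusted p = 0.0159) were called, where 9.65% of all genes were. Eln was at 9.72 and 12.5 CPM in KO NASH replicates 1 and 5 and at 3.54 to 6.58 in replicates 2, 3 and 4. Gli1 was at 0 in 7 libraries. The summed level of these markers was 22.8 to 55.0 CPM in KO NASH and 11.9 to 18.2 in WT NASH. The summed portal fibroblast and smooth muscle markers had r = 0.72 with Pdgfra and 0.65 with Pdgfrb over the 20 libraries (0.46 and 0.36 within groups). The activated fibroblast markers, here with Fn1 included, had 0.36 and 0.56 (0.59 and 0.72 within groups). Fn1 held 521998 counts over the 20 libraries and no other marker of that list more than 11376, so these values mostly follow Fn1. Correlations without Fn1 are not given. The part of these cells in the receptor differences was not tested.

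Single markers of other cell types also differed between groups. The shares of all genes called by edgeR were 9.65% in KO NASH versus WT NASH and 5.93% in WT NASH versus WT chow. They were 5.53% in KO chow versus WT chow and 3.29% in KO NASH versus KO chow. Of the 10 endothelial markers Lyve1 was higher in KO NASH than in WT NASH (1.62, edgeR adjusted p = 0.00866), with the sum at 318 to 533 CPM versus 277 to 382. Of the 10 macrophage markers Gpnmb was higher (4.22, edgeR adjusted p = 0.00177) and Timd4 lower (-1.41, edgeR adjusted p = 0.0408) there, and the sum was 258 to 368 CPM in KO NASH and 354 to 779 in WT NASH. Cd68 was higher in WT NASH (1.01, edgeR adjusted p = 0.0380) and in KO chow (1.03, edgeR adjusted p = 0.0360) than in WT chow. Sox9, among the 7 cholangiocyte markers, rose in KO NASH versus KO chow (1.82, edgeR adjusted p = 0.0326), Cd3e, among the 9 lymphocyte markers, in WT NASH versus WT chow (2.11, edgeR adjusted p = 0.0188). Of the 7 hepatocyte markers Serpina1a, of a multigene family whose counts are uncertain, was lower in KO than in WT on both diets (-1.07 and -0.82, edgeR adjusted p = 0.0189 and 0.0439). The summed cholangiocyte markers had r = 0.78 with Pdgfd over the 20 libraries (0.84 within groups), and the lymphocyte markers 0.70 (0.76). With Pdgfa the cholangiocyte markers had r = 0.34 (0.80 within groups), the lymphocyte markers -0.05 (0.61) and the pancreas markers -0.21 (0.66). These are only some of the values from all marker lists set beside each PDGF gene. The pancreas sum was mostly Cela1, with 3613 counts over the 20 libraries. WT NASH replicate 4 was the highest of its group for cholangiocyte (535 CPM), lymphocyte (118 CPM) and pancreas markers (109 CPM). It was also the highest of its group for Pdgfa (4.85 CPM) and Pdgfd (6.18 CPM). The weight of this library in these correlations was not tested. Of the 6 markers of platelets, which carry PDGF-B, Pf4 was at 0 in 15 libraries and Gp1bb in 19, and Itga2b alone was abundant enough to be tested (0.97 in KO NASH versus WT NASH, edgeR adjusted p = 0.0648). Their sum was 1.48 to 4.28 CPM (WT chow), 0.883 to 1.78 CPM (WT NASH), 1.85 to 5.71 CPM (KO chow) and 2.30 to 3.55 CPM (KO NASH). This sum was mostly Itga2b, which held 785 counts over the 20 libraries, with no other of the 6 markers above 46. It did not overlap between KO NASH and WT NASH, a pattern found in this direction in 7.67% of all single genes tested. Its correlation with Pdgfb over the 20 libraries was r = -0.01 (-0.12 within groups). Adipose markers summed to at most 0.969 CPM, and Cela1, the tested pancreas marker, was lower in KO NASH than in WT NASH (-3.15, edgeR adjusted p = 0.00288). WT NASH replicate 4 held 107 CPM of Cela1 and the other 4 libraries of that group 11.7 to 20.7, and without replicate 4 the change was -2.02 (edgeR adjusted p = 0.00594). The other 5 pancreas markers had 0 to 91 counts each over all 20 libraries together. The part of these cells in the PDGF values was not tested.

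**Figure D4:**
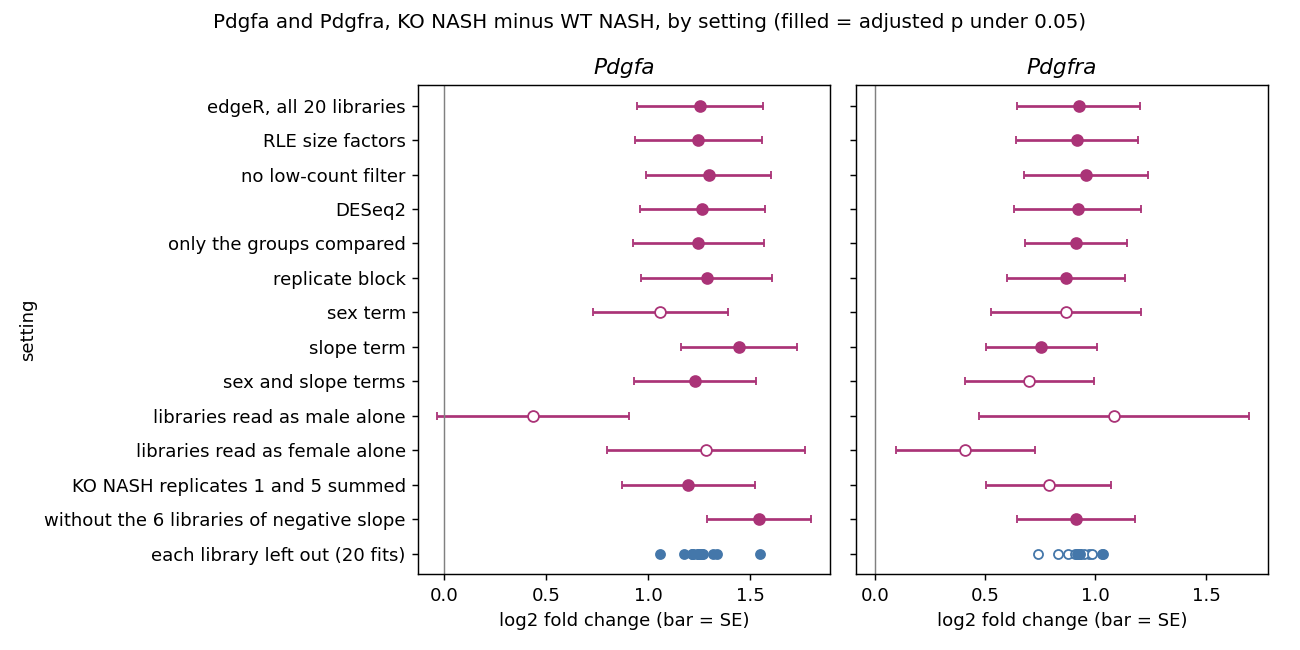
Log2 fold change of Pdgfa and Pdgfra in KO NASH versus WT NASH under each setting (bar, SE) and in the 20 fits that leave out 1 library, with filled points where the adjusted p is under 0.05. Every value is above 0, Pdgfa is not called with a sex term or in either sex alone, and Pdgfra is also not called with both terms or with KO NASH replicates 1 and 5 summed.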

How the data were processed

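Whole-liver RNA of 20 mice was sequenced from Trizol extracts, per the labels' protocols. The authors deposited raw counts per gene symbol, 1 column per mouse, whose diet names (CD, HFD) were matched to chow and the NASH diet because CD is the chow diet. HISAT2 2.0.4 and GRCm38 are named in the submitters' processing notes. For the counting program, the annotation and any use of strand, nothing is given in the sources used here, so reads of Pdgfb and its antisense gene Gm41361 (234 counts in all) cannot be told apart.

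Counts were fitted in R 4.3.3 with edgeR 4.0.16 (filterByExpr, minimum count 10; TMM; 1 model of 4 group coefficients over all 20 libraries; quasi-likelihood test, Benjamini-Hochberg adjustment over 14440 genes). Each mouse is a replicate. CPM used TMM-scaled library sizes, and RPKM divided CPM by exonic length from GENCODE M21 (13502 of the tested genes matched). A library with at least 100 counts over Ddx3y, Kdm5d, Eif2s3y and Uty was read as male. The length slope regressed each library's log2 CPM, relative to the mean, on log2 exonic length over 9518 genes. Promoter sequences came from RefSeq (GRCm38.p6), with entries for 4 of the 6 genes. The members, the 16 gene lists and the rules were chosen with earlier results of these data known. Named genes are the 6 PDGF genes, Pck1, the called genes of each list (at most 3 per list and comparison, by p) and the 3 genes most correlated with each PDGF gene among those of at least 1 CPM, leaving out predicted genes, Rik clones and pseudogenes; Fos, Egr1, Klf10, Grb2, Ptpn11, Plcg1, Lrat, Gli1, Pf4, Gp1bb and Itga2b, list members outside the rule, were named after their values were seen. Alternatives were RLE size factors, no low-count filter, DESeq2 1.42.0, a fit of only the compared groups, a replicate block, sex and slope terms, each sex alone, KO NASH replicates 1 and 5 summed, each library left out and, added after seeing the data, all 6 libraries of negative slope left out. The procedure was tested on simulated counts with 4-fold changes in a group. Smaller changes and differences of sex or slope were not simulated, so that test does not bear on them. Floors cover counting error only.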

Additional observations from a re-analysis of the deposited data

Results flagged for a closer look

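Pdgfra in WT chow replicate 1 stood apart from the rest of its group. It was at 11.8 CPM, and the next highest library of the 5 was at 6.65 CPM. Of the 24 sets of a PDGF gene and a group, this was the only one with such a library, and chance flags about 1 in 20 groups. The same library was also the highest of WT chow for Pdgfrb, at 10.2 CPM. Without it, Pdgfra in WT NASH against WT chow had a log2 fold change of 0.58 (edgeR adjusted p = 0.173), against 0.32 with it, and was not called in either case.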

How the results depend on the processing

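Depth and the spread between mice limited these results, as did the unequal sex of the groups: the least abundant gene, Pdgfb, had 0 to 70 counts per library, and its 95% interval in WT NASH versus WT chow ran from -1.12 to 0.97 on the log2 scale. The number of called PDGF genes kept its value with RLE size factors, no low-count filter, DESeq2, a slope term and the replicate block. In WT NASH versus WT chow it fell from 1 to 0 with only the groups compared, a sex term, sex and slope terms, males alone and without the 6 libraries of negative slope, and was 0 to 1 with 1 library left out. In KO NASH versus WT NASH it fell from 2 to 0 with a sex term, in males alone and in females alone, to 1 (Pdgfa) with sex and slope terms and with KO NASH replicates 1 and 5 summed, and was 1 to 2 with 1 library left out. It rose to 3 with only the groups compared, where Pdgfrb was added, and without the 6 libraries of negative slope, where Pdgfb was added. Males alone held 1 WT NASH library and females alone 1 KO NASH library. Without the 6 libraries of negative slope WT NASH held only females. In these comparisons 161 and 625 of all genes were called with a sex term, versus 857 and 1393. In the other 3 comparisons it was 0 under every setting run. The cause was not tested. Females alone allowed no comparison with WT chow.

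Of 930 values of a PDGF gene under an alternative, 865 kept sign and call, 28 lost the call, 2 gained it and 35 changed sign, none of these with a call on either side. Apart from Pdgfd in WT NASH versus WT chow (-0.69), these were differences of -0.16 to 0.32. Without the 6 libraries of negative slope, Pdgfd was 0.22 in WT NASH versus WT chow and 0.036 in KO NASH versus WT NASH, and Pdgfc was 0.30 in KO chow versus WT chow. Pdgfd in KO NASH versus WT NASH was 0.32 with a slope term and 0.31 with both terms, and Pdgfd in KO NASH versus KO chow was -0.089 with KO NASH replicates 1 and 5 summed. In KO chow versus WT chow Pdgfc was 0.12 with a sex term and 0.12 with both terms, Pdgfb 0.028 without the filter and 0.00015 with only the groups compared, and Pdgfa -0.018 in males alone. Pdgfa in KO NASH versus KO chow was -0.011 with a sex term. The median of the 6 genes was -0.014 in WT NASH versus WT chow with a sex term and -0.057 in KO chow versus WT chow in males alone.

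With 1 library left out, the ranges that crossed 0 were -0.38 to 0.13 for Pdgfb in WT NASH versus WT chow, and in KO chow versus WT chow -0.30 to 0.20 for Pdgfb, -0.26 to 0.15 for Pdgfc and -0.091 to 0.15 for Pdgfa. They were -0.41 to 0.041 for Pdgfd in KO NASH versus WT NASH, -0.015 to 0.21 for Pdgfa and -0.14 to 0.63 for Pdgfd in KO NASH versus KO chow, and -0.028 to 0.66 for the interaction of Pdgfrb. The median of the 6 genes ranged from -0.074 to 0.26 in WT NASH versus WT chow and from -0.041 to 0.16 in KO chow versus WT chow.

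With the replicate number as a block, edgeR adjusted p was 0.0414 for Pdgfa in WT NASH versus WT chow, and 0.0186 for Pdgfa and 0.0482 for Pdgfra in KO NASH versus WT NASH, so no call changed and the counts were 1, 0, 2, 0 and 0 as before. The numbers do not pair the mice: 13 of 30 same-number pairs had a correlation of deviations over 0.1 (median 0.05, versus -0.02 for other pairs), and 6 of 20 libraries correlated best with their own number.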
